A study of Saccharomyces cerevisiae with 12 samples.

Results

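The 31 genes described here encode the subunits of RNA polymerases I, II and III of Saccharomyces cerevisiae, and they were picked by gene symbol out of 5656 genes with a probe set of their own. Of these, 7 belong to RNA polymerase I (Pol I) alone, 7 to Pol II alone and 10 to Pol III alone, while 2 serve both Pol I and Pol III and 5 are common to all the polymerases. Their transcripts were followed over 12 microarrays (Affymetrix YG-S98), 3 for each of 4 groups: wildtype and anc1Δ cells, each untreated or treated with MMS, an agent that methylates DNA. The wildtype is BY4741 (MATa his3Δ1 leu2Δ0 met15Δ0 ura3Δ0), and anc1Δ lacks ANC1 (TAF14) in the same background, so that both strains carry the marker alleles. The array methods describe the deletion as marked by G418 resistance and the strain construction as marked by URA3. Cells of all groups grew in YPD to mid-log phase. Neither the dose nor the duration of MMS for the arrays is given in the sources used here. For the 3 treated wildtype arrays the title says treated and the source name says untreated, and for 3 anc1Δ arrays the description names wildtype. The titles were followed.

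RNA polymerase I makes the large precursor of ribosomal RNA, Pol II makes messenger RNA, and Pol III makes transfer RNA, 5S ribosomal RNA and other small RNAs. All are built on the same plan: a pair of large subunits forms the active centre, an alpha-like pair holds them together during assembly, a stalk reaches out to the new RNA, and small subunits shared among the enzymes complete the core. Pol I and Pol III also hold, as permanent subunits, counterparts of factors that only bind Pol II in passing. Anc1 is a subunit of several complexes that work with Pol II, among them TFIID and TFIIF. Genes of Pol I and Pol III subunits are known to be expressed in step with those of ribosome production.

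ANC1 itself read 175 to 356 in intensity on the wildtype arrays and 6.87 to 15.7 on the anc1Δ arrays, so that the strain labels were borne out on all 12. The a-specific gene STE2 read 856 to 1025 in wildtype and 70.3 to 98.3 in anc1Δ, while the alpha-specific gene STE3 was low in both (15.8 to 23.2 and 11.7 to 17.6). STE2 thus stood apart between strains given as the same MATa background. The cause, and its part in the strain differences below, was not tested. URA3, named as the marker in the strain construction, read 7.23 to 11.9 on the wildtype arrays and 9.44 to 17.2 on the anc1Δ arrays. Its signal lay at percentiles 7.06 to 8.42 in the 4 groups, and which marker the strain carried was not tested. Arrays of 1 group correlated at 0.988 to 0.997 over all probe sets. A sign of RNA quality moved with MMS. For actin, the ratio of the 3′ to the 5′ control probe set was 1.47 to 1.68 in untreated and 3.31 to 3.85 in treated wildtype, and 1.74 to 1.85 in untreated and 3.43 to 4.0 in treated anc1Δ. That of the control gene YER022w was 4.66 to 5.91 and 16.1 to 19.3 in wildtype, and 4.50 to 6.28 and 9.74 to 11.8 in anc1Δ, so that under MMS it also stood apart between the strains. The ratio of the control gene YER148w was 3.57 to 4.16 and 4.37 to 4.94 in wildtype, and 3.87 to 4.65 and 4.69 to 7.09 in anc1Δ. Under MMS the ratios of actin and YER148w overlapped between the strains. The part of these ratios in the results was not tested. Intensities are relative to the other transcripts of an array, and in bulk cultures fewer cells with a transcript and less of it per cell cannot be told apart. A gene is called changed at an adjusted p under 0.05 (limma, Benjamini-Hochberg over all probe sets) and a fold of at least 1.5.

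**Figure D1:**
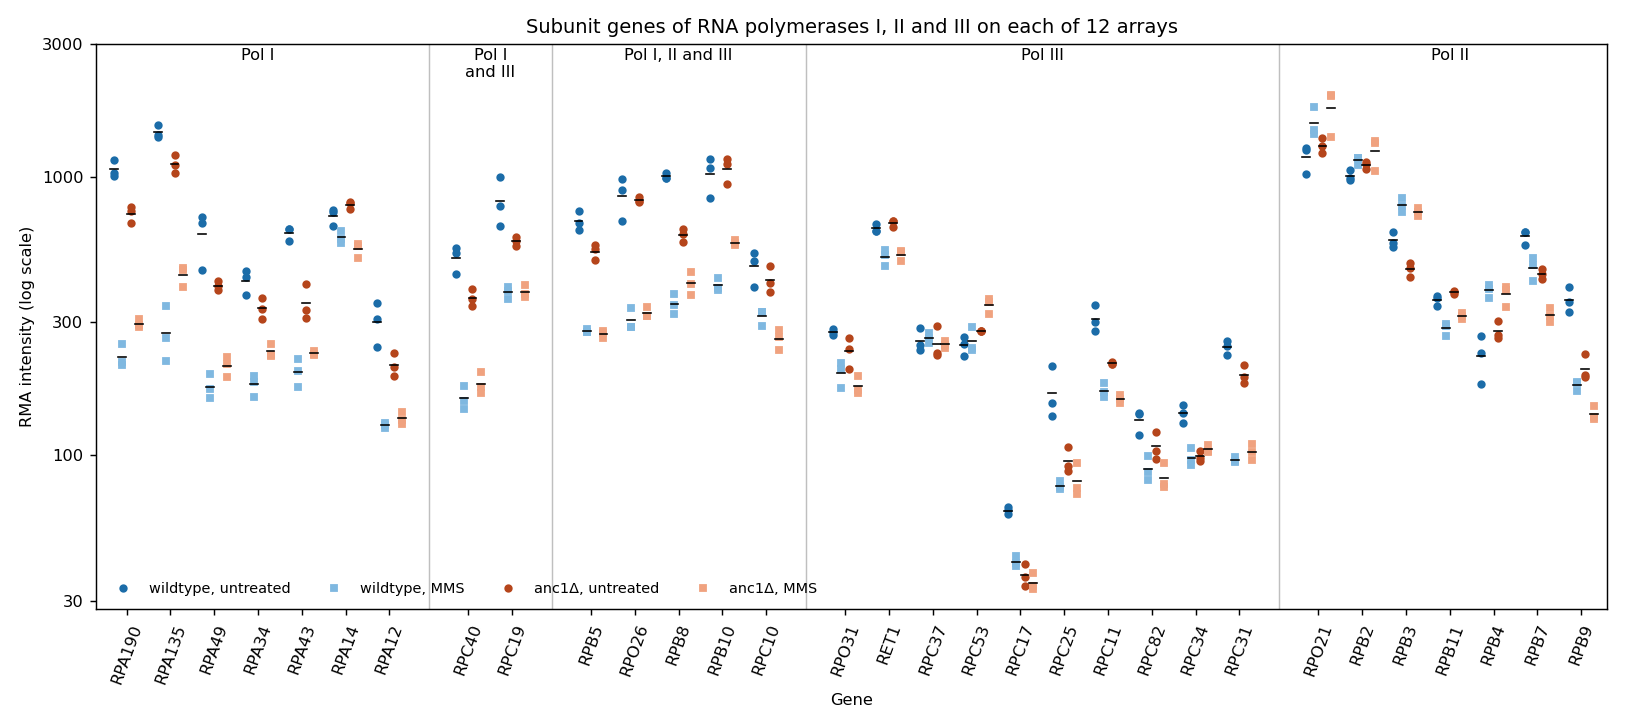
RMA intensity (log scale) of the 31 subunit genes on each of the 12 arrays, with points for arrays and a short line for the mean of each group of 3. RPA190 and RPA135 lie at 1003 or above on the untreated wildtype arrays and at 344 or below on the treated ones, whereas the Pol II genes RPO21 and RPB2 are higher on every treated than on every untreated wildtype array.

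In wildtype, MMS lowered most of the subunit transcripts, and those of Pol I most. Of the 31 genes 18 fell, beside 20.8% of all genes called lower, and 1 rose, beside 27.7% of all genes called higher. The median log2 change was -0.85 over the 31 genes and 0.08 over all genes. Of the 7 Pol I genes 6 fell (median -1.66), as did both subunits shared by Pol I and Pol III (median -1.37) and all 5 common subunits (median -1.32). Of the 10 Pol III genes 4 fell (median -0.56). Among the 7 Pol II genes 1 fell and 1 rose (median 0.19).

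The largest and second largest subunits of Pol I, which together form its active centre, showed the greatest falls. RPA190, the largest, read 1003, 1151 and 1036 in untreated wildtype and 251, 212 and 216 under MMS. It was 4.71-fold lower (log2 -2.23 ± 0.10 SE, n = 3 and 3, limma adjusted p = 8.3e-10). RPA135, the second largest, read 1416, 1531 and 1387 untreated and 344, 264 and 219 under MMS. The change was 5.33-fold (log2 -2.41 ± 0.14 SE, limma adjusted p = 1.0e-08), and no treated array came near an untreated one for either gene. RPA190 is matched by 6 other, dimmer probe sets, of which 5 fell with log2 changes between -1.71 and -2.84 in treated wildtype, and the sixth, at percentile 6.99 of signal, moved by -0.26 (limma adjusted p = 0.17).

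The pair RPA49 and RPA34, a built-in counterpart of the Pol II factor TFIIF, also fell. RPA49 read 463, 720 and 683 untreated and 195, 161 and 173 under MMS, with untreated replicate 1 well below the other two but still above every treated array. Its log2 change was -1.79 ± 0.15 (SE, limma adjusted p = 2.3e-07) and that of RPA34 was -1.24 ± 0.11. RPA43, the stalk subunit that contacts the initiation factor Rrn3, read 588, 648 and 651 untreated and 223, 175 and 201 under MMS (log2 -1.66 ± 0.12 SE, limma adjusted p = 5.2e-08). RPA43 and RPA190 are neighbours on chromosome XV. RPA12, which serves in RNA cleavage and termination, averaged 302 untreated and 128 treated (log2 -1.22 ± 0.12 SE). The exception was RPA14, the other stalk subunit, whose means of 726 and 606 gave a log2 change of -0.26 ± 0.09, short of the fold limit although its arrays did not overlap.

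RPC40 and RPC19, the alpha-like pair that Pol I and Pol III share, fell with the Pol I genes. RPC40 read 447, 555 and 531 in untreated wildtype and 178, 147 and 157 under MMS (log2 -1.67 ± 0.11 SE, limma adjusted p = 4.0e-08). RPC19 averaged 817 and 385 (log2 -1.07 ± 0.13 SE). The corresponding pair of Pol II did not follow them, since RPB3 moved by 0.42 ± 0.09 (SE) and RPB11 by -0.34 ± 0.08, both short of the fold limit.

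All 5 subunits held in common by the polymerases were lower in treated wildtype. RPB8 read 1034, 987 and 994 untreated and 347, 323 and 381 treated (log2 -1.52 ± 0.10 SE, limma adjusted p = 2.0e-08). RPO26 read 692, 980 and 896 untreated and 289, 288 and 338 treated (log2 -1.48 ± 0.12 SE, limma adjusted p = 2.2e-07). RPB5 read 643, 756 and 682 untreated and 278, 276 and 284 treated (log2 -1.31 ± 0.09 SE, limma adjusted p = 3.6e-08). The groups were separate for each of these genes. RPB10 moved by -1.32 ± 0.12 (SE). RPC10 moved by -0.59 ± 0.12 (SE), at the fold limit, and was not called without untreated wildtype replicate 2 (-0.55) or 3 (-0.50) or without treated replicate 3 (-0.53).

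Within Pol III, the 4 genes called lower were smaller subunits. On the adjusted p alone 8 of the 10 Pol III genes were lower (80%, beside 32.2% of all genes), the 2 large subunits among them. RPO31, the largest, read 271, 284 and 277 in untreated wildtype and 214, 204 and 175 under MMS (log2 -0.50 ± 0.11 SE, limma adjusted p = 0.0016, fold 1.41). RET1, the second largest, read 641, 641 and 678 untreated and 548, 525 and 478 treated (log2 -0.34 ± 0.08 SE, limma adjusted p = 0.0030). Neither gene reached the fold limit, although the treated arrays of both lay below all untreated ones. RPC31, of the trimer that resembles the Pol II factor TFIIE, averaged 244 and 96.1 and fell most (log2 -1.35 ± 0.09 SE), while its partners RPC82 (-0.58 ± 0.12) and RPC34 (-0.53 ± 0.09) missed the limit.

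The stalk of Pol III and its cleavage subunit made up the rest of the called falls. RPC25, of the stalk, read 138, 154 and 209 untreated and 80.7, 75.7 and 76.9 treated (log2 -1.08 ± 0.15 SE, limma adjusted p = 2.5e-05). RPC17, its stalk partner and the dimmest of the 31 genes, read 63.5, 65.1 and 61.3 untreated and 41.2, 43.3 and 40.0 treated (log2 -0.61 ± 0.09 SE, limma adjusted p = 6.0e-05). RPC11, the counterpart of RPA12, moved by -0.85 ± 0.09 (SE). The initiation and termination pair RPC37 and RPC53 gave 0.03 ± 0.11 and 0.05 ± 0.10, with overlapping arrays. The Pol III count depended on the scaling: centred on each array's median, RPO31 (-0.61), RPC82 (-0.70) and RPC34 (-0.65) were called too, which made 7 of 10. After a new quantile normalization the same 3 genes were called (-0.63, -0.67 and -0.62) and RPC17 was lost (-0.48), which made 6, and RPC17 was also lost without treated wildtype replicate 3 (-0.58).

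The Pol II genes behaved differently from gene to gene. RPO21, whose product carries the C-terminal repeats of the largest subunit, read 1268, 1023 and 1245 in untreated wildtype and 1776, 1477 and 1424 under MMS (log2 0.40 ± 0.14 SE, limma adjusted p = 0.025, fold 1.32). RPB2, the second largest, read 986, 977 and 1058 untreated and 1165, 1167 and 1106 treated (log2 0.19 ± 0.10 SE, limma adjusted p = 0.11). Both lay higher on every treated array, short of the fold limit. RPB4, of the stalk, averaged 228 and 391 and was the gene that rose (log2 0.80 ± 0.13 SE), whereas RPB7, its stalk partner, moved by -0.38 ± 0.10. RPB9, the counterpart of RPA12 and RPC11 with a part in start site choice and fidelity, read 328, 355 and 401 untreated and 171, 184 and 181 treated (log2 -1.01 ± 0.10 SE, limma adjusted p = 1.8e-06).

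**Figure D2:**
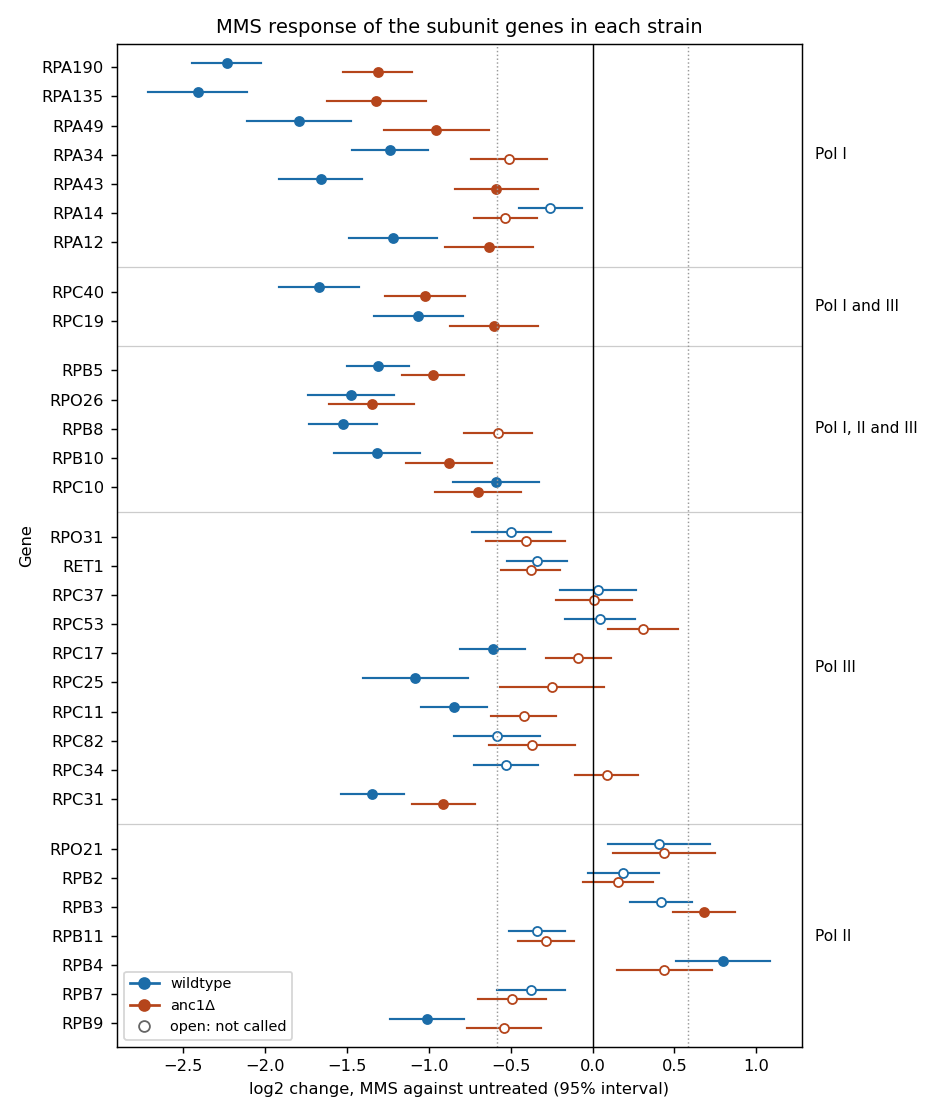
Log2 change under MMS of each subunit gene in wildtype and anc1Δ, with 95% intervals from the limma fit, filled points for called changes and dotted lines at a fold of 1.5. In wildtype 18 genes fell and 1 rose, in anc1Δ 12 fell and 1 rose, and for most Pol I genes the anc1Δ point lies closer to 0.

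In anc1Δ, MMS lowered Pol I genes, the pair shared by Pol I and Pol III and common subunits. Of the 31 genes 12 fell, beside 15.7% of all genes called lower, and 1 rose, beside 16.0% called higher. The median log2 change was -0.51, against -0.01 over all genes. The falls comprised 5 of 7 Pol I genes, both genes shared by Pol I and Pol III, 4 of 5 common genes and 1 of 10 Pol III genes. The Pol III share of 10% was under that of all genes but rests on 1 gene. On the adjusted p alone 5 of the 10 Pol III genes were lower (50%, beside 29.6% of all genes). Of the 7 Pol II genes 0 fell and 1 rose, and 3 were lower at an unadjusted p under 0.05 (limma), beside 1846 of all 5656 genes. The medians were -0.63 for Pol I, -0.81 for the shared pair, -0.88 for the common subunits, -0.31 for Pol III and 0.16 for Pol II.

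RPA190 read 780, 753 and 682 in untreated anc1Δ and 310, 294 and 288 under MMS (log2 -1.31 ± 0.10 SE, limma adjusted p = 2.5e-07). RPA135 read 1100, 1033 and 1194 untreated and 470, 402 and 461 treated (log2 -1.32 ± 0.14 SE, limma adjusted p = 6.1e-06). The 2 genes were thus close to 2.5-fold lower (2.48 and 2.50), with no overlap between the groups. RPA49 read 405, 392 and 423 untreated and 226, 191 and 214 treated (log2 -0.95 ± 0.15 SE, limma adjusted p = 0.00015). RPA43 read 411, 334 and 310 untreated and 236, 232 and 229 treated (log2 -0.59 ± 0.12 SE, limma adjusted p = 0.0010). RPA12 moved by -0.63 ± 0.12 (SE). RPA34 (-0.51 ± 0.11) and RPA14 (-0.53 ± 0.09) stayed short of the fold limit. RPA43 and RPA12 stood near that limit, and without untreated anc1Δ replicate 1 both were lost (-0.47 and -0.56), which left 3 Pol I genes. RPA43 was also lost without treated anc1Δ replicate 3 (-0.58).

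The greatest fall in anc1Δ was that of a common subunit. RPO26 read 819, 846 and 812 untreated and 315, 341 and 316 treated (log2 -1.35 ± 0.12 SE, limma adjusted p = 1.3e-06). RPB5 read 568, 501 and 549 untreated and 280, 276 and 265 treated (log2 -0.98 ± 0.09 SE, limma adjusted p = 1.4e-06). RPB10 moved by -0.88 ± 0.12 (SE) and RPC10 by -0.70 ± 0.12. RPB8 was the exception, with 621, 582 and 648 untreated and 377, 413 and 453 treated (log2 -0.58 ± 0.10 SE, limma adjusted p = 0.00027, fold 1.49), just under the limit, and it was called after either rescaling of the arrays (-0.61 and -0.60). RPC40 read 365, 344 and 395 untreated and 200, 168 and 175 treated (log2 -1.02 ± 0.11 SE, limma adjusted p = 8.6e-06). RPC19 changed by -0.60 ± 0.13 (SE), and it was not called without replicate 1 of either anc1Δ group (-0.58 in both cases).

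RPC31 was the Pol III gene that fell in anc1Δ, from a mean of 194 to 103 (log2 -0.91 ± 0.09 SE). RPO31 read 263, 240 and 205 untreated and 172, 192 and 168 treated (log2 -0.41 ± 0.11 SE, limma adjusted p = 0.0081). RET1 read 696, 695 and 658 untreated and 542, 536 and 499 treated (log2 -0.38 ± 0.08 SE, limma adjusted p = 0.0022). The changes of these large subunits were close to those in wildtype. RPC25 read 107, 91.8 and 87.9 untreated and 72.4, 93.6 and 76.4 treated, with treated replicate 2 above an untreated array (log2 -0.25 ± 0.15 SE, limma adjusted p = 0.19). RPC17 read 36.7, 40.5 and 34.1 untreated and 33.1, 33.9 and 37.6 treated (log2 -0.09 ± 0.09 SE, limma adjusted p = 0.46). Both stalk genes of Pol III thus overlapped between the groups.

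Of the Pol II genes in anc1Δ, RPB3, of the alpha-like pair, rose from a mean of 467 to 748 (log2 0.68 ± 0.09 SE). RPO21 read 1290, 1376 and 1214 untreated and 1944, 1387 and 1972 treated (log2 0.43 ± 0.14 SE, limma adjusted p = 0.023), with treated replicate 2 just above the highest untreated array. Without that array RPO21 passed the limit (0.60). RPB2 read 1131, 1071 and 1109 untreated and 1342, 1318 and 1049 treated, and its groups overlapped (log2 0.16 ± 0.10 SE, limma adjusted p = 0.22). RPB9 read 194, 191 and 230 untreated and 135, 137 and 150 treated (log2 -0.54 ± 0.10 SE, limma adjusted p = 0.00080). RPB9 missed the fold limit, and without untreated replicate 2 or treated replicate 3 it passed (-0.59 in both cases), which made 2 Pol II genes called.

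Setting counterparts side by side, the large subunits of the 3 enzymes took different courses under MMS. In wildtype the log2 response of RPA190 minus that of RPO31 was -1.74 ± 0.09 (SE), RPA190 minus RPO21 gave -2.64 ± 0.16, and RPO31 minus RPO21 gave -0.90 ± 0.13. The second largest subunits followed the same order, with -2.07 ± 0.15 for RPA135 minus RET1, -2.60 ± 0.19 for RPA135 minus RPB2 and -0.53 ± 0.04 for RET1 minus RPB2. In anc1Δ RPA190 minus RPO31 was -0.90 ± 0.09 and RPA190 minus RPO21 was -1.75 ± 0.17. RPA135 minus RET1 was -0.94 ± 0.12 there, and RPA135 minus RPB2 was -1.48 ± 0.16. For each of these gene pairs the treated and untreated arrays were separate, with an exact two-sided permutation p of 0.1. That is the smallest that 3 against 3 independent arrays allow, and it stays at 0.1 or above after adjustment over the 18 differences computed. The test did not pair the anc1Δ arrays by replicate number.

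The cleavage subunits were closer to each other. In wildtype RPA12 minus RPC11 was -0.37 ± 0.09 (SE, exact permutation p = 0.1) and RPA12 minus RPB9 was -0.21 ± 0.09 (exact permutation p = 0.2), with overlapping arrays for the second pair, and RPC11 minus RPB9 was 0.16 ± 0.08 (exact permutation p = 0.1). In anc1Δ the 3 differences ran from -0.21 to 0.12. Thus the change of RPB9 in wildtype (-1.01) lay between those of its counterparts in Pol I (-1.22) and Pol III (-0.85), whereas RPO21 and RPB2 lay on the other side of 0 from RPA190 and RPA135.

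**Figure D3:**
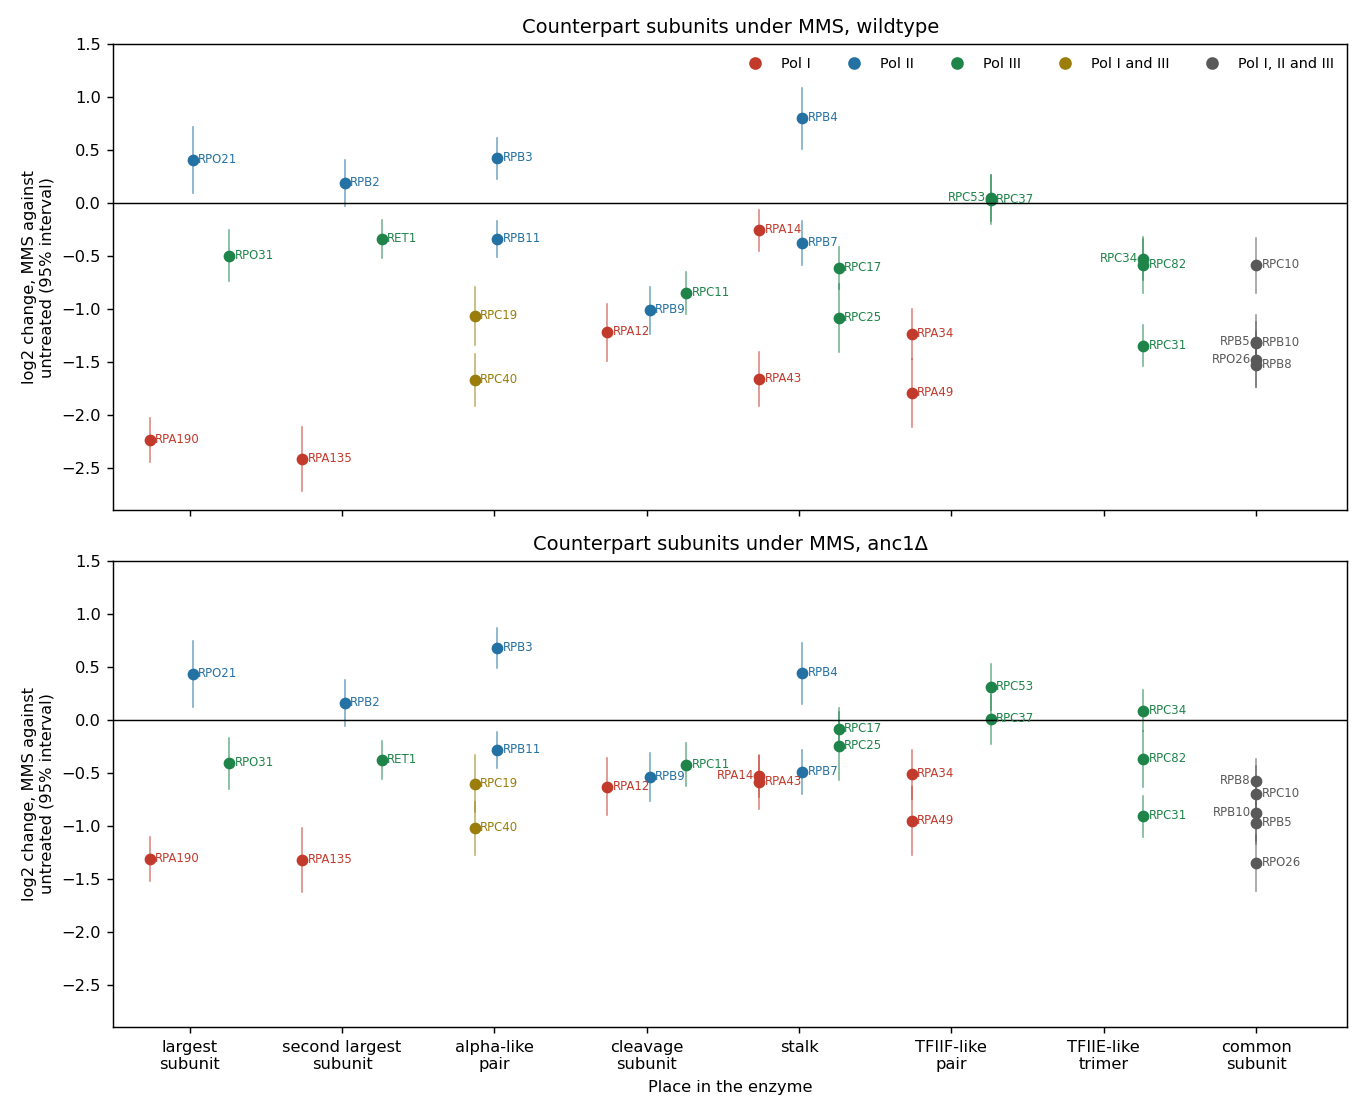
Log2 change under MMS (95% interval) of the subunit genes placed by their position in the enzyme, coloured by polymerase, in wildtype (top) and anc1Δ (bottom). At the largest and second largest positions the order is Pol I lowest, Pol III between and Pol II highest in both strains, while the cleavage subunits lie together at -1.22, -1.01 and -0.85 in wildtype.

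Before treatment the anc1Δ cells already had less of some subunit transcripts. Of the 31 genes 6 were lower in untreated anc1Δ than in untreated wildtype, beside 12.4% of all genes called lower, and none was higher, beside 11.1% of all genes. The share of 19.4% was above that of all genes but rests on 6 genes. On the adjusted p alone, 17 of 31 genes were lower (54.8%, beside 27.5% of all genes) and 0 higher (beside 977 of all 5656 genes). At an unadjusted p under 0.05 from limma 0 were higher, beside 1163 of all genes. The median log2 change was -0.34 against -0.10 over all genes, with -0.51 for Pol I, -0.32 for Pol III and 0.09 for Pol II.

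The 6 genes came from every class but the pair shared by Pol I and Pol III. RPA43 changed most, from 588, 648 and 651 in wildtype to 411, 334 and 310 in anc1Δ (log2 -0.85 ± 0.13 SE, limma adjusted p = 0.0015). The log2 change was -0.82 ± 0.13 (SE, limma adjusted p = 0.0015) for RPB9, -0.79 ± 0.17 (limma adjusted p = 0.0067) for RPC25 and -0.77 ± 0.11 (limma adjusted p = 0.00091) for RPC17. RPB8, at 621, 582 and 648 in anc1Δ and 1034, 987 and 994 in wildtype, changed by -0.71 ± 0.10 (SE, limma adjusted p = 0.00099). RPA49 (-0.59 ± 0.17 SE, limma adjusted p = 0.025) stood at the fold limit and was not called after either rescaling (-0.54 and -0.57) or without wildtype replicate 2 or 3 or any 1 of the anc1Δ replicates (-0.47 to -0.62). Without it 1 Pol I gene was called.

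The active-centre genes of Pol I were lower short of the fold limit, with -0.53 ± 0.11 (SE, limma adjusted p = 0.0064) for RPA190 and -0.38 ± 0.11 (limma adjusted p = 0.022) for RPA135. The 6 other probe sets of RPA190 differed here, with 2 past both limits as lower (-1.22 and -1.05, limma adjusted p = 0.00046 and 0.0012), the dimmest past both as higher (0.61, limma adjusted p = 0.025) and the others between -0.55 and -0.04. Those of the other enzymes gave 0.14 ± 0.12 (RPO21), 0.13 ± 0.10 (RPB2), -0.24 ± 0.12 (RPO31) and 0.06 ± 0.10 (RET1), all with limma adjusted p of 0.14 or more. Untreated wildtype replicate 1 read low for several genes, and without it RPA12 (-0.65), RPC11 (-0.59) and RPC19 (-0.60) were also called, which made 9 genes.

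Under MMS the strains differed little in these transcripts. One gene, RPA135, was higher in treated anc1Δ than in treated wildtype, beside 10.9% of all genes called higher, and 0 of 31 were lower, beside 18.4% called lower. At an unadjusted p under 0.05 from limma, 4 were lower, beside 2466 of all 5656 genes. The 3.23% called higher and 0% called lower were thus both under the shares of all genes. RPA135 read 470, 402 and 461 in treated anc1Δ against 344, 264 and 219 in treated wildtype (log2 0.71 ± 0.14 SE, limma adjusted p = 0.00089), and without treated wildtype replicate 3 its difference was 0.56 and no longer called. On the adjusted p alone 6 genes were higher, RPA190 (0.40), RPA34 (0.40), RPC53 (0.44), RPB10 (0.51) and RPB8 (0.24) beside RPA135, and 3 were lower, RPB7 (-0.56), RPB9 (-0.35) and RPC17 (-0.25). On that limit 1087 of all 5656 genes were higher and 2296 (40.6%) lower, beside 9.68% of the subunit genes lower. RPB7 was called lower without treated wildtype replicate 3 (-0.64) or treated anc1Δ replicate 1 (-0.61). Of the 6 other probe sets of RPA190, 3 were past both limits as higher in treated anc1Δ (0.98, 0.60 and 0.60, limma adjusted p = 3.4e-05, 0.00062 and 0.0065), the last being the dimmest. The median was 0.08 against -0.18 over all genes, and RPB10 was called as well after either rescaling (0.64 and 0.62).

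**Figure D4:**
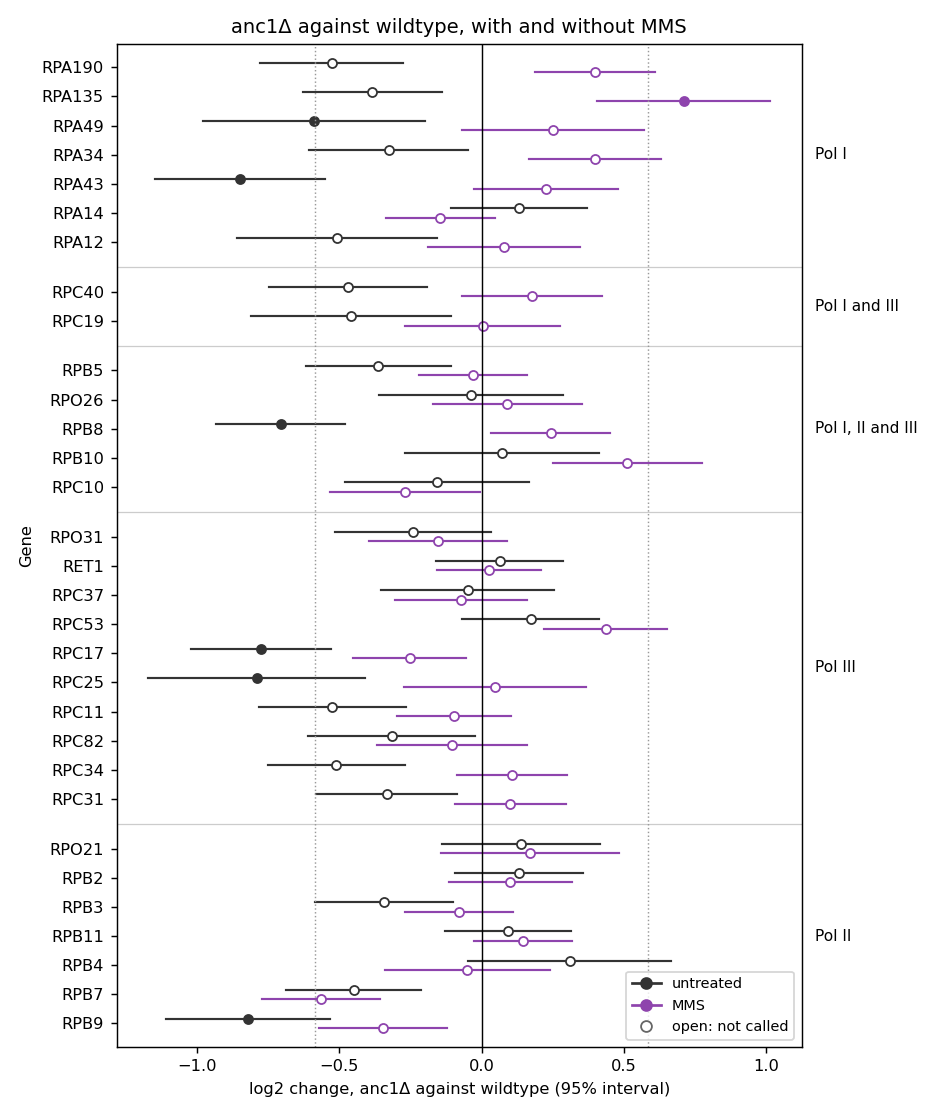
Log2 change of each subunit gene in anc1Δ against wildtype, untreated and under MMS, with 95% intervals from limma, filled points for called changes and dotted lines at a fold of 1.5. Untreated, 6 genes are called lower, and under MMS RPA135 is called higher (0.71) while most other points lie within 0.5 of 0.

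The strains therefore differed in their response. The difference of the 2 MMS responses, tested as an interaction, was called positive (a higher response in anc1Δ) for 10 of 31 genes (32.3%), beside 9.58% of all genes, and negative for 0 of 31, beside 14.2% of all genes. At an unadjusted p under 0.05 from limma, 17 were positive and 1 negative, beside 1049 positive and 1596 negative of all 5656 genes. The median was 0.43 against -0.08 over all genes. Because all comparisons draw on the same 12 arrays, this difference equals the treated strain difference minus the untreated one, and it is no further evidence for either.

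Pol I gave 6 of the 10 genes. The interaction was 1.09 ± 0.20 (log2, SE) for RPA135 (limma adjusted p = 0.0017), 1.07 ± 0.17 for RPA43 (limma adjusted p = 0.00056), 0.92 ± 0.14 for RPA190 (limma adjusted p = 0.00044) and 0.84 ± 0.21 for RPA49 (limma adjusted p = 0.010). RPA34 (0.72 ± 0.15) and RPA12 (0.59 ± 0.17) completed them, and RPA14, the Pol I gene that hardly fell in wildtype, gave -0.28 ± 0.13. In 5 of the 6 other probe sets of RPA190 the interaction lay between 0.78 and 1.5, and 4 of these passed on adjusted p. For RPA43 most of the difference lay in the untreated cells, where anc1Δ against wildtype gave -0.85, beside 0.23 under MMS. For RPA135 the larger share lay under MMS (0.71, beside -0.38 untreated).

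Outside Pol I, the interaction was called for RPB8 (0.95 ± 0.14 SE, limma adjusted p = 0.00034), RPC25 (0.84 ± 0.21 SE, limma adjusted p = 0.010), RPC40 (0.65 ± 0.16) and RPC34 (0.62 ± 0.13). RPC25 and RPC34 were the Pol III genes among them. No Pol II gene passed, with 1 positive at an unadjusted p under 0.05 (limma), beside 1049 of all 5656 genes. The interaction was 0.03 ± 0.20 (95% interval -0.41 to 0.47) for RPO21 and -0.03 ± 0.14 (95% interval -0.34 to 0.27) for RPB2. Those of RPO31 (0.09 ± 0.16) and RET1 (-0.04 ± 0.12) were also near 0. RPC34 was lost without untreated wildtype replicate 2 (0.57) or treated wildtype replicate 3 (0.57), which left 1 Pol III gene, and RPC40 without untreated wildtype replicate 2 (0.58), treated wildtype replicate 2 (0.58) or treated anc1Δ replicate 1 (0.57). RPA12 was lost in 6 of the 12 fits that left out an array (0.47 to 0.58). Untreated, anc1Δ against wildtype gave -0.71 for RPB8, -0.79 for RPC25, -0.47 for RPC40 and -0.51 for RPC34. Under MMS it gave 0.24, 0.05, 0.18 and 0.11. The YER022w 3′ to 5′ ratio overlapped between the untreated strains and stood apart under MMS (16.1 to 19.3 in wildtype, 9.74 to 11.8 in anc1Δ). Those of actin and YER148w overlapped between the treated strains. The part of these ratios was not tested.

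The factors that bring the polymerases to their promoters are described by lists, each read against the shares of all genes given above. Of 9 Pol I initiation factors 1 rose and 1 fell in treated wildtype (11.1% each, beside 27.7% of all genes called higher and 20.8% lower). RRN3, which carries Pol I to the promoter by way of the stalk subunit Rpa43, averaged 86.1 ± 11.1 (SD, n = 3) untreated and 244 ± 1.98 treated (log2 1.51 ± 0.11 SE, limma adjusted p = 6.8e-08), and in anc1Δ it went from 79.5 to 166 (log2 1.06 ± 0.11 SE). RRN5, of the upstream activation factor, fell in wildtype (-0.88 ± 0.16 SE). RRN11, of the core factor, was the one called in the untreated strain comparison (-0.78 ± 0.24 SE), which made 11.1%, beside 12.4% of all genes called lower.

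Of 9 Pol III initiation factors, 4 rose and 0 fell in treated wildtype (median 0.56), and 3 rose in anc1Δ. At an unadjusted p under 0.05 (limma) 0 were lower in either strain, beside 1886 of all 5656 genes in wildtype and 1846 in anc1Δ. BRF1, the TFIIB-like subunit of TFIIIB, averaged 233 untreated and 444 treated in wildtype (log2 0.93 ± 0.09 SE, limma adjusted p = 8.4e-07) and moved by 0.74 ± 0.09 in anc1Δ. The TFIIIB subunit BDP1 rose by 0.91 ± 0.11 in wildtype and TFC3 of TFIIIC by 0.91 ± 0.10. Under MMS 4 of the 9 were lower in anc1Δ than in wildtype, with TFC3 at -0.93 ± 0.10, TFC8 at -0.79 ± 0.11 and TFC4 at -0.66 ± 0.10, and the interaction was called for TFC3 (-0.59 ± 0.15). That is 1 factor of 9 (11.1%), beside the 14.2% of all genes called negative.

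Of 16 Pol II general factors 7 rose and 1 fell in wildtype, and 5 rose and 1 fell in anc1Δ. SSL2, a helicase of TFIIH that also acts in nucleotide excision repair, rose by 1.95 ± 0.14 (SE) in wildtype and 1.70 ± 0.14 in anc1Δ, and CCL1, the cyclin of TFIIH, by 1.41 ± 0.09 and 1.51 ± 0.09. TFG2, of TFIIF, rose by 1.08 ± 0.08 in wildtype, while TFB5, the smallest TFIIH subunit, fell in both strains (-0.94 ± 0.12 and -1.0 ± 0.12). TFIIF is the free factor whose built-in counterpart in Pol I, RPA49 with RPA34, fell. Of 10 Pol II elongation factors 4 rose and 1 fell in wildtype, the 4 being PAF1 (0.99 ± 0.09), LEO1 (0.81 ± 0.14), CTR9 (0.72 ± 0.12) and RTF1 (0.80 ± 0.11), and the other SPT4 (-0.59 ± 0.10). The 4 that rose belong to the Paf1 complex, whose remaining subunit gene, CDC73, was not called in either strain (0.29 ± 0.09 and 0.13 ± 0.09). In anc1Δ LEO1 (1.0 ± 0.14) and CTR9 (0.74 ± 0.12) rose, and PAF1 differed between the strains in its response (-0.63 ± 0.13). Under MMS PAF1 (-0.62 ± 0.09) and TFB1 of TFIIH (-0.75 ± 0.12) were lower in anc1Δ than in wildtype.

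Of 9 genes for assembly and nuclear import of the polymerases, 2 rose in wildtype (22.2%, beside 27.7% of all genes called higher). They were IWR1 (1.42 ± 0.12 SE), which serves in the import of Pol II, and GPN2 (0.79 ± 0.11). None fell, with 1 lower at an unadjusted p under 0.05 (limma), beside 1886 of all 5656 genes. In anc1Δ 3 rose and 1, RTR1, fell (-0.68 ± 0.16). Between the treated strains BUD27 was higher (0.68 ± 0.09) and RTR1 lower (-0.70 ± 0.16) in anc1Δ. Of 9 regulators of Pol I, Pol III and ribosome biogenesis genes, 2 rose in wildtype (22.2%, beside 27.7% of all genes called higher). One fell (11.1%, beside 20.8% called lower). SCH9 was at 0.77 ± 0.11, STB3 at 0.82 ± 0.19 and TOD6 at -0.70 ± 0.15. MAF1, the repressor of Pol III, averaged 80.0 ± 31 (SD, n = 3) untreated and 111 ± 3.64 treated in wildtype, and 78.6 and 62.7 in anc1Δ. Its changes of 0.56 ± 0.23 (SE) and -0.33 ± 0.23 were not called, and under MMS it was lower in anc1Δ (-0.82 ± 0.23 SE, limma adjusted p = 0.0080). SFP1, an activator of ribosome biogenesis genes, was the other regulator lower in treated anc1Δ (-0.94 ± 0.10 SE, limma adjusted p = 4.8e-06). These 2 of 9 made 22.2%, beside 18.4% of all genes called lower. In untreated anc1Δ 2 of the 9 regulators were called higher than in wildtype (22.2%, beside 11.1% of all genes), the repressor genes DOT6 (0.68 ± 0.16) and STB3 (0.83 ± 0.23). MAF1 gave 0.07 and TOD6 -0.36 there, and 5 of the 9 lay below 0 (median -0.11). The interaction was called positive for TOD6 (0.60 ± 0.21), 1 of 9 (11.1%, beside 9.58% of all genes).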

How the data were processed

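The deposited table held 1 value per probe set and array, per the file headers and the labels an RMA intensity (Robust Multichip Average, by the authors), and the values proved to be on a linear scale. They were log2 transformed here. Of 9335 probe sets 60 controls were set aside, which left 9275 for the test, lmFit with eBayes of limma 3.58.1 under R 4.3.3 with Benjamini-Hochberg adjustment. GEO's platform annotation gave 1 gene for 6504 probe sets, several for 328 and none for 2443. The brightest probe set stood for each gene, and 30 of the 31 members have 1. All 31 lay above the dimmest 25% of probe sets, at percentiles 31.4 to 93.3 of signal. The untreated strain comparison used 6 arrays and the others all 12, with 1 mean per group. Calls needed an adjusted p under 0.05 and a fold of 1.5, as in the study's methods, which name the Local Pooled Error test, not run here. The exact permutation test served for differences between counterparts. The fit was tested on simulated data.

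Members, gene lists and tests were chosen with earlier results of these data known. Every array is given for the largest and second largest subunit of each enzyme and for up to 6 called members per comparison with the largest change, the rest by means and counts, and in the lists up to 3 called genes per comparison plus MAF1, RRN3 and BRF1. List genes named beyond this, to spell out counts of 5 or fewer, were chosen after their values were seen. The methods state independent colonies for the strains but not for the treated cultures, so p-values measure the spread between these arrays, which may be technical. Arrays of the same number deviated together in all 3 pairs only between untreated and treated anc1Δ (r = 0.373, 0.24 and 0.167). Some arrays of unlike number did so as much, such as untreated wildtype 2 with treated anc1Δ 1 (r = 0.343). These values therefore do not establish pairs, and the anc1Δ arrays were taken as possibly paired. The main fit and the exact permutation test took all arrays as independent. Only the fits with a replicate block took up this possible pairing, so the permutation p-values in anc1Δ leave it out. The number of arrays limits the precision. Alternatives were leaving out each array, a replicate block, 6 or 12 arrays, scaling, a variance trend, a low-signal filter, the fold limit and the mean of probe sets. Promoter sequences were not used here.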

Additional observations from a re-analysis of the deposited data

Results flagged for a closer look

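Effects of MMS that differed between wildtype and anc1Δ were found for 10 subunit genes by the interaction test, each with a response that was higher in anc1Δ (limma, log2 difference of the responses, anc1Δ minus wildtype): RPA135 (1.09), RPA43 (1.07), RPB8 (0.95), RPA190 (0.92), RPA49 (0.84), RPC25 (0.84), RPA34 (0.72), RPC40 (0.65), RPC34 (0.62) and RPA12 (0.59). For 9 of them the response in anc1Δ was a smaller negative change, and RPC34 gave 0.09 there, beside -0.53 in wildtype.

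A signal among the control probe sets, outside the comparisons above, was higher in treated than in untreated wildtype. The 25S ribosomal RNA control set a had a median intensity of 9420 on the treated wildtype arrays, whose lowest was 9301, against 4962 to 6151 on the untreated ones. In anc1Δ it read 8966 to 10842 untreated and 10799 to 12870 treated.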

How the results depend on the processing

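Without a fold limit the genes called were 17 of 31 in the untreated strain comparison (Pol I 5, Pol II 3, Pol III 5, the pair shared by Pol I and III 2, common 2), 6 for Pol II and 8 for Pol III under MMS in wildtype, 26 under MMS in anc1Δ (Pol II 6, Pol III 6), 1 for Pol II and 5 for Pol III in the strain difference of the response, and 9 between the treated strains (Pol I 3, Pol II 2, Pol III 2, common 2). Without a fold limit all 5656 genes gave 1556 lower and 977 higher untreated, and 1819 lower and 2332 higher under MMS in wildtype. They gave 1674 and 1658 under MMS in anc1Δ, 1224 and 786 in the strain difference, and 2296 and 1087 between the treated strains. With a fold of 2 the counts of subunit genes were 0 untreated, in every class. They were 1 for Pol II and 2 for Pol III in treated wildtype. In treated anc1Δ they were 4 (Pol I 2, the shared pair 1, common 1, Pol II and Pol III 0). They were 2 in the strain difference, both of Pol I, with 0 elsewhere, and 0 between the treated strains. After median centring or a new quantile normalization, Pol I had 1 gene in the untreated comparison, and 2 genes differed between the treated strains, 1 of them common. Centring gave 7 Pol III genes in treated wildtype, and quantile normalization 1 Pol II gene in the strain difference. Centring moved the median of all genes from 0.08 to -0.04 in treated wildtype and from -0.18 to -0.05 between the treated strains. The cause of these shifts was not tested.

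Leaving out 1 array gave 5 to 9 genes in the untreated comparison (Pol I 1 to 3, the shared pair 0 to 1), 17 to 21 in treated wildtype, 10 to 15 in treated anc1Δ (Pol I 3 to 5, Pol II 1 to 2, the shared pair 1 to 2), 7 to 11 in the strain difference (Pol III 1 to 3, the shared pair 0 to 2) and 1 to 2 between the treated strains (Pol I 0 to 1, Pol II 0 to 1).

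With the replicate number as a block the counts were 6 untreated, 19 in treated wildtype, 13 in treated anc1Δ (also in a fit of the anc1Δ arrays alone, chosen after seeing the data), 10 in the strain difference and 1 between the treated strains, and no call on a subunit gene changed. The trend, the filter, the arrays in the fit and the mean of probe sets moved no count by over 1.5 times.

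Changes of sign met only values near 0. Centring and quantile normalization gave -0.0853 and -0.0895 for RPC37 and -0.0699 and -0.0693 for RPC53 under MMS in wildtype, and 0.0460 and 0.0441 for RET1 and 0.0523 and 0.035 for RPB2 in the strain difference. Leaving out 1 array gave ranges of -0.0211 to 0.106 for RPC37 and -0.0411 to 0.0998 for RPC53 in treated wildtype, and in the strain difference of -0.0576 to 0.196 for RPO21, -0.0952 to 0.0827 for RPB2, -0.0110 to 0.170 for RPO31 and -0.0935 to 0.00593 for RET1.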

Other observations

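The array carries 10 control probe sets for 18S and 25S ribosomal RNA, the products of Pol I. In wildtype 9 of them were lower on every treated than on every untreated array, and in anc1Δ 8 were. The 18S set e went from a median of 3403 to 51.8 in wildtype and from 597 to 89.5 in anc1Δ. The 25S set e went from 10633 to 3051 in wildtype, whereas in anc1Δ its groups overlapped at medians of 18184 and 19299. In untreated cells 4 sets were higher and 2 lower on every anc1Δ than on every wildtype array, with the 25S set d at a median of 454 in wildtype and 3639 in anc1Δ. Sets for the same RNA thus moved apart from each other. The standard Affymetrix labelling starts from poly(A) tails, so that these sets do not measure the amount of ribosomal RNA, and the cause of their changes was not tested.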
